A study of Mus musculus with 8 samples.

Results

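Paired immune receptors of the CD300, TREM, SIRP and PILR families were followed in macrophages of WT and iNOS-deficient mice, before and after M1 activation. The set named 10 genes, Cd300lb, Cd300a, Cd300lf, Cd300ld, Trem1, Trem2, Trem3, Tyrobp, Sirpa and Pilra, and every probe carrying one of these symbols on the array was taken. Of the 10 symbols, 9 were on the array, with 12 probes, out of 18138 symbols and 25697 probes in all. Cd300ld was not present under its own symbol. A probe that the array lists as 4732429D16Rik carried the Entrez identifier that RefSeq gives to Cd300ld, and its values are given separately and are not in the counts of 12 probes. The set was put together with the knowledge that Cd300lb was among the largest decreases in iNOS-/- M1 macrophages, so differences between the M1 groups are given as a description without a test for all members, as is any comparison that includes an M1 group for Cd300lb. The members were taken by symbol, and the set was chosen by the measured intensities of the M1 groups through Cd300lb. No measured value is named for the choice of the other members, though earlier results of these data were known.

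The cells were bone marrow-derived macrophages of female mice aged 8 weeks, all grown in GM-CSF (10 ng per ml) for 7 days. WT mice were C57BL/6J, and mice carrying the Nos2 tm1Lau allele (iNOS-/-) were of the strain B6.129P2-Nos2 tm1Lau/J. The part of the strain background in the differences between genotypes was not tested. The 4 groups, of 2 arrays each, were WT CON and iNOS-/- CON, which received no stimulus, and WT M1 and iNOS-/- M1, which received LPS (200 ng per ml) plus IFN-γ (10 ng per ml) for 6 h. The allele is constitutive, so the marrow cells carried it during the whole culture and not only during activation. Nothing in the labels ties the 2 arrays of a group to separate mice or cultures, and the p-values then measure only the spread between these arrays, which may be technical. RNA was measured with Illumina bead arrays, on which each probe gives a fluorescence intensity and a detection p-value, which is low where few negative controls on the array are as bright. Values of single arrays are given below as linear intensities after scaling between arrays unless the log2 scale is named, and group means and differences are on the log2 scale, with values under 1 set to 1 first. A p-value given beside a fold of at least some size tests that log2 difference and not the bound.

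Between 46.0% and 49.3% of the probes were detected on each array. The median difference between the 2 arrays of a group lay between 0.161 and 0.187 on the log2 scale. The WT M1 and iNOS-/- CON arrays were the nearest pair of different groups (0.344 to 0.363), nearer than WT M1 to WT CON (0.517 to 0.525). Nos2 was not detected on any of the 4 CON arrays and was detected on all 4 M1 arrays, at 7.26 ± 0.30 (SD, n = 2) in WT M1 and 7.58 ± 0.13 in iNOS-/- M1, a difference of 0.32 (SE 0.32, adjusted p = 0.445). The Nos2 probe starts at base 3546 of the transcript, and whether that stretch is removed by the allele is not given in the sources used here, so it does not check the genotype labels. All 9 macrophage marker genes were detected on both arrays of every group, and none of the 7 lymphocyte markers passed the detection filter. The levels of the macrophage markers moved in different ways. By group mean, Cd68 and Csf1r were highest in WT CON (12.20 and 11.75) and lowest in iNOS-/- M1 (10.27 and 10.14). Cd14, Mertk and Emr1 were highest in iNOS-/- M1, and Fcgr1, Itgam, Lyz and Lyz2 in WT M1. Dendritic cell markers summed to a scaled intensity of 282 to 319 in WT CON, 5535 to 5585 in WT M1, 4282 to 4472 in iNOS-/- CON and 16300 to 17430 in iNOS-/- M1, with Flt3 undetected throughout. Il4i1 made up most of that sum outside WT CON (4546 and 4620 in WT M1, 13170 and 14460 in iNOS-/- M1), while Cd209a was detected in iNOS-/- CON (36.2 and 42.5) and undetected in iNOS-/- M1, and Itgax read 253.0 and 251.8 in iNOS-/- CON and 200.8 and 172.9 in iNOS-/- M1. Ccr7 (11.3 and 14.3 in WT CON, 1967 and 1809 in iNOS-/- M1) was, like Il4i1, lowest in WT CON and highest in iNOS-/- M1. So were Zbtb46 (8.63 and 5.53 in WT CON, 64.8 and 78.9 in iNOS-/- M1) and Dpp4 (undetected in WT CON, 872.4 and 898.1 in iNOS-/- M1). Markers of dividing cells summed to 708.5 to 797 in WT CON, 2158 to 2296 in WT M1, 2586 to 2607 in iNOS-/- CON and 938.9 to 939.5 in iNOS-/- M1. The part of these shifts in the receptor levels was not tested. In bulk RNA, fewer cells of a type and less RNA per cell cannot be told apart.

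Paired receptors are surface proteins of myeloid cells that come in activating and inhibitory forms with related extracellular domains. Activating members, such as TREM1, TREM2, TREM3 and CD300LB, have short tails and signal through adaptors with an immunoreceptor tyrosine-based activation motif, chiefly DAP12, encoded by Tyrobp, which recruits the kinase SYK. Inhibitory members, such as CD300A, CD300LF, SIRPα and PILRα, carry inhibitory tyrosine motifs in their own tails and recruit the phosphatases SHP-1 and SHP-2. In macrophages the balance between both kinds sets the threshold for cytokine release, degranulation and uptake of dying cells.

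The 250 bases upstream of the gene start are shown for the members whose RefSeq start is the outermost of the gene and that were called in opposite directions between the unstimulated groups. They are Cd300lb (chr11:114934372-114934621, minus strand), Cd300ld (chr11:114989887-114990136, minus strand), Trem2 (chr17:48346151-48346400, plus strand) and Pilra (chr5:137836279-137836528, minus strand), from RefSeq on GRCm38.p6, written 5′ to 3′. Capitals mark a TATA box (TATAAA) in Cd300lb, a PU.1 motif (GAGGAAGT) in Cd300ld, an AP-1 motif (TGANTCA) in Trem2 and an interferon response motif, 2 GAAA blocks with 2 free bases between them, in Pilra.
Cd300lb: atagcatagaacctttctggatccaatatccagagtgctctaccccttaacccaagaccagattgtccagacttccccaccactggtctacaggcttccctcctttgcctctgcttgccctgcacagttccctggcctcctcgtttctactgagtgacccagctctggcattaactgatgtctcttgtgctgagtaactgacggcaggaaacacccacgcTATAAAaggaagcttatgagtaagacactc
Cd300ld: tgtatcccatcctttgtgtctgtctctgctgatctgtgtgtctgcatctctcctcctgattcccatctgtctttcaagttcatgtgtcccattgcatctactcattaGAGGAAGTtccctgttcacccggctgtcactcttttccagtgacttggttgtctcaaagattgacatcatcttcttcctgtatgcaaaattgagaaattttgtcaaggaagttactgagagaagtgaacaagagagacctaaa
Trem2: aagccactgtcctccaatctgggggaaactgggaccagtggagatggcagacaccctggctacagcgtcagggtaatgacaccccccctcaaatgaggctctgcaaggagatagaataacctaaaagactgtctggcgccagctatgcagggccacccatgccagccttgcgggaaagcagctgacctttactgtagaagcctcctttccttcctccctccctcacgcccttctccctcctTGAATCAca
Pilra: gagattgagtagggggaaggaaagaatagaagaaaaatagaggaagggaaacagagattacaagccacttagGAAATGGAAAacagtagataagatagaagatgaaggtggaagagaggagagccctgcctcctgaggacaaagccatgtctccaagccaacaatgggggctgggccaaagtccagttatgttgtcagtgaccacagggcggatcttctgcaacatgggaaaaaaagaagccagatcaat

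RefSeq promoters were matched for 7 of the 10 listed genes, all but Trem3, Tyrobp and Sirpa. Both strands of the 250 bases before the start were searched for 7 motifs, with no regard to overlaps between them. TATAAA was found in Cd300lb and Cd300lf and in 12.4% of all 32851 promoter windows. GAGGAAGT was found in Cd300ld (2.44% of all windows), the interferon response motif in Pilra (2.98%), TGANTCA in Trem2 (6.75%) and the STAT motif TTCNNNGAA in Trem1 (7.02%). An NF-κB motif and the C/EBP motif TTGCGCAA were in none of the 7 windows and in 0.356% and 0.164% of all windows. These are matches of letters within the windows, not measured binding.

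Among the CD300 members, which lie close to each other on chromosome 11, every probe was highest in WT CON and lowest in iNOS-/- M1 by group mean. Cd300lb, an activating receptor that couples to DAP12, had scaled intensities of 156 and 182 in WT CON, 61.3 and 74.3 in WT M1, and 42.6 and 49.1 in iNOS-/- CON. In iNOS-/- M1 both arrays were below 0 (-2.74 and -2.28), with detection p-values of 0.717 and 0.693. No array of one group overlapped with another group, and the transcript was not detected in activated iNOS-/- cells at this sensitivity. Since only a bound is known there, Cd300lb was at least 9.05-fold lower in iNOS-/- M1 than in WT M1 and at least 6.13-fold lower than in iNOS-/- CON, against the lowest detected values of the same arrays. The value in WT M1 was 2.50-fold below that in WT CON. The stated choice of the set names only the M1 groups, though earlier results of these data were known when it was made. In unstimulated cells Cd300lb was 3.69-fold lower in iNOS-/- CON than in WT CON (log2 difference -1.88, SE 0.15, adjusted p = 0.000822, limma with Benjamini-Hochberg adjustment).

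Cd300a, an inhibitory receptor, was read by 2 probes that start at bases 4334 and 4536 of the same transcript. The probe at base 4536 read 78.0 and 69.8 in WT CON, 42.97 and 41.91 in WT M1, 44.61 and 41.05 in iNOS-/- CON, and 13.4 and 16.3 in iNOS-/- M1. WT M1 and iNOS-/- CON lay together, between the other groups. It was 1.72-fold lower in iNOS-/- CON than in WT CON (adjusted p = 0.00913), 1.74-fold lower after activation of WT cells (adjusted p = 0.00829) and 2.89-fold lower after activation of iNOS-/- cells (adjusted p = 0.000488). The first of these calls was lost without WT CON replicate 1 (adjusted p = 0.052) and without iNOS-/- CON replicate 2 (adjusted p = 0.054). The dimmer probe at base 4334 was also lower in iNOS-/- CON than in WT CON (log2 -1.22, adjusted p = 0.0171), a call lost with any 1 of 3 arrays left out (adjusted p from 0.0603 to 0.0847). It was detected on all arrays but those of iNOS-/- M1, where its level was at least 1.62-fold below that of iNOS-/- CON (adjusted p = 0.00728), a call that was lost with a line with intercept (log2 -0.27, adjusted p = 0.207) and with a floor of 16 (log2 0.00). Its fall in WT cells (log2 -0.91, adjusted p = 0.0389) did not pass without a detection filter (adjusted p = 0.0868), with an intensity trend (adjusted p = 0.0743) or with any 1 of 6 arrays left out, with adjusted p-values up to 0.159.

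Cd300lf, another inhibitory receptor of the family, separated iNOS-/- M1 from the other 3 groups. Its scaled intensities were 126.5 and 126.5 in WT CON, 139.5 and 104.5 in WT M1, and 86.2 and 95.8 in iNOS-/- CON, against 16.46 and 11.65 in iNOS-/- M1. The CON groups differed by -0.48 on the log2 scale (SE 0.22, adjusted p = 0.159) and WT M1 from WT CON by -0.07 (adjusted p = 0.837), neither of which passed. Activation of iNOS-/- cells lowered it 6.56-fold (log2 -2.71, SE 0.22, adjusted p = 0.000397). The level in iNOS-/- M1 was 8.72-fold below that in WT M1, which is given without a test.

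The probe for Cd300ld, an activating CD300 receptor, read 400 and 335 in WT CON, 141 and 135 in WT M1, 126 and 110 in iNOS-/- CON, and 53.35 and 46.85 in iNOS-/- M1. The 4 groups did not overlap. It was 3.12-fold lower in iNOS-/- CON than in WT CON (adjusted p = 0.00105), and activation lowered it 2.66-fold in WT cells (adjusted p = 0.00162) and 2.35-fold in iNOS-/- cells (adjusted p = 0.00122). The CD300 genes have related sequences, and whether a probe also binds the transcript of a neighbouring family gene was not tested.

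**Figure D1:**
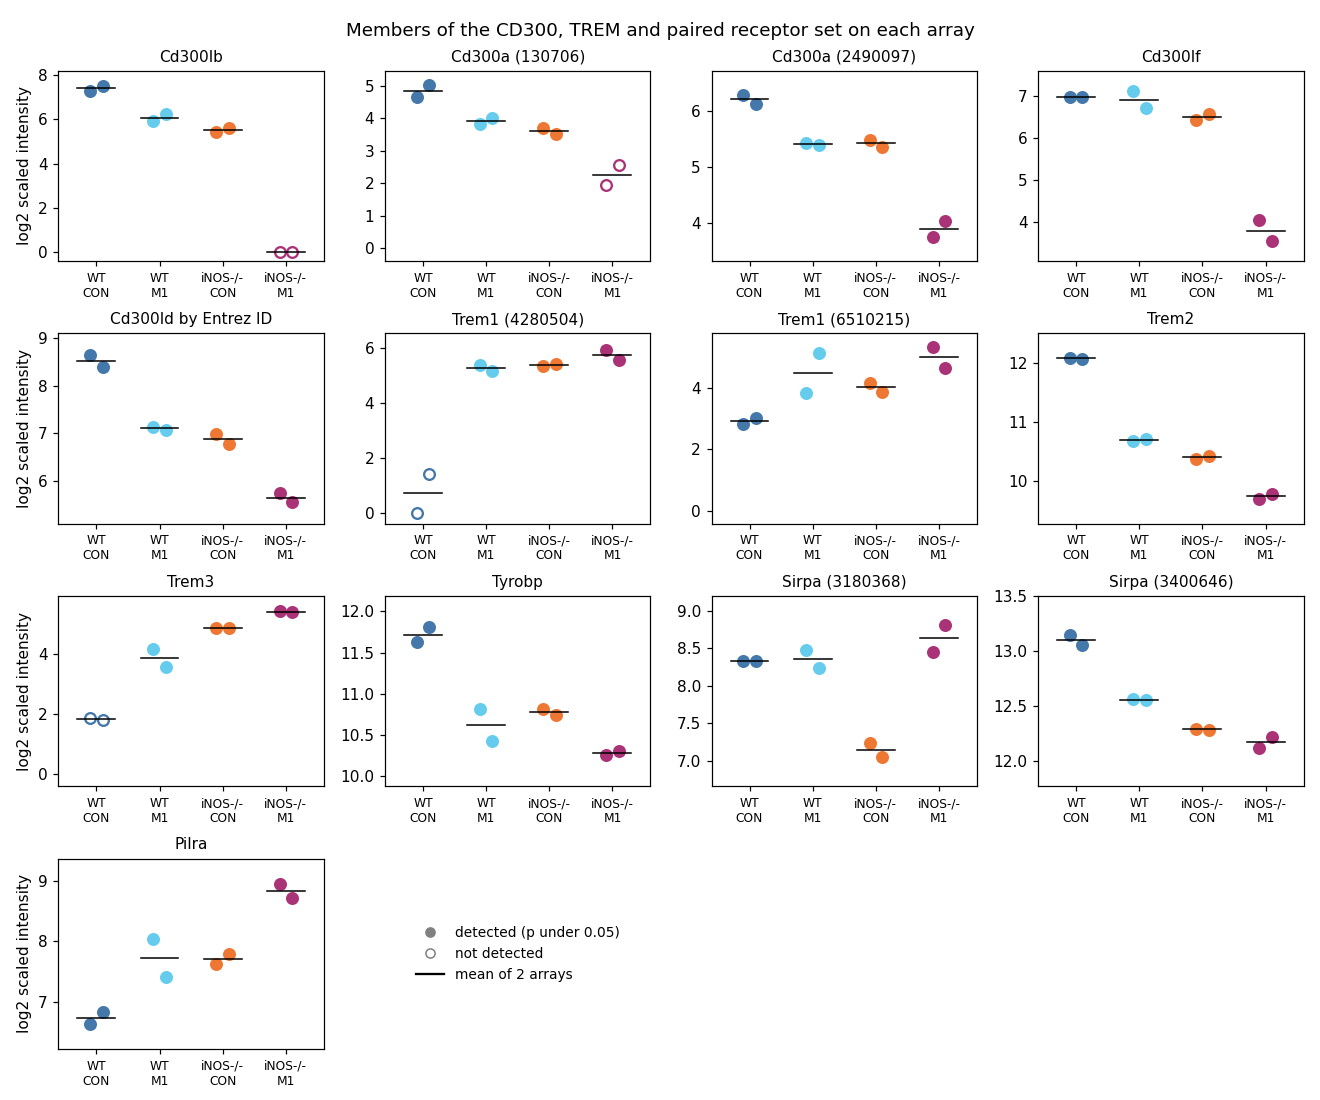
Log2 scaled intensity of each member probe on each of the 8 arrays, in 4 groups of 2 (x axis), with the mean as a line and open circles where the probe was not detected; each panel has its own y axis. Cd300lb lies at the floor of 0 on both iNOS-/- M1 arrays, while Trem1 (probe 4280504) and Trem3 are undetected only in WT CON.

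The TREM receptors did not move together. Trem2, a receptor for lipids and dying cells that signals through DAP12, read 4361 and 4320 in WT CON, 1636 and 1691 in WT M1, 1333 and 1374 in iNOS-/- CON, and 828.8 and 883.5 in iNOS-/- M1. No groups overlapped, and the arrays of a group differed by far less than the groups. It was 3.21-fold lower in iNOS-/- CON than in WT CON (log2 -1.68, SE 0.08, adjusted p = 0.000198). Activation lowered it 2.61-fold in WT cells (adjusted p = 0.000294) and 1.58-fold in iNOS-/- cells (adjusted p = 0.0017). Between the M1 groups it was 1.94-fold lower in iNOS-/- cells.

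Trem1, which amplifies inflammatory signals in neutrophils and monocytes, was read by 2 probes, of which 1 was undetected in WT CON. Its probe at base 2646 of the transcript read 0.088 and 2.68 in WT CON, 41.79 and 36.45 in WT M1, 41.45 and 43.08 in iNOS-/- CON, and 61.8 and 47.45 in iNOS-/- M1. WT M1 and iNOS-/- CON overlapped, and WT CON was the group in which this probe was not detected. Against WT CON, this probe was at least 7.51-fold higher in iNOS-/- CON (adjusted p = 0.00174) and at least 6.94-fold higher in WT M1 (adjusted p = 0.0018). Activation of iNOS-/- cells gave a difference of 0.36 (SE 0.46, adjusted p = 0.555), which did not pass, and with neqc 0.34, which did (adjusted p = 0.0255). The other Trem1 probe, at base 14, was detected on every array and was higher in iNOS-/- CON by 1.10 (SE 0.46, adjusted p = 0.135), in WT M1 by 1.55 (SE 0.46, adjusted p = 0.0524) and on activation of iNOS-/- cells by 0.96 (SE 0.46, adjusted p = 0.143), none of which passed. The first passed in a fit of the 4 CON arrays alone (adjusted p = 0.0276), the WT change with an intensity trend (adjusted p = 0.00992), among probes detected on all 8 arrays (adjusted p = 0.0168) and without WT M1 replicate 1 (adjusted p = 0.0201), and the iNOS-/- change with neqc (adjusted p = 0.0306) and without either WT M1 array (adjusted p = 0.0481). The 2 WT M1 arrays of that probe read 14.2 and 34.4.

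Trem3, an activating receptor encoded next to Trem1, read 3.70 and 3.48 in WT CON, where it was not detected, 17.7 and 11.7 in WT M1, 28.8 and 28.9 in iNOS-/- CON, and 43.5 and 41.6 in iNOS-/- M1. The groups rose in this order without overlap. Trem3 was at least 5.12-fold higher in iNOS-/- CON than in WT CON (adjusted p = 0.000536) and at least 2.56-fold higher in WT M1 than in WT CON (adjusted p = 0.00174). With low values raised to 16 the latter difference was 0.07 and did not pass (adjusted p = 0.403). Activation of iNOS-/- cells gave 0.56 (SE 0.20, adjusted p = 0.0669), and this passed in 7 of the alternative settings. Granulocyte markers, which share the myeloid lineage in which Trem1 and Trem3 are known to be expressed, summed to 1256 to 1258 in WT CON, 1488 to 1590 in WT M1, 1764 to 1817 in iNOS-/- CON and 3948 to 4101 in iNOS-/- M1. Of 12 such genes, 5 were detected on both WT CON arrays and 8 in each other group, and Mpo and Retnlg were undetected on all 8 arrays. S100a8 (919.9 and 932.8 in WT CON, 2839 and 2945 in iNOS-/- M1) and S100a9 (undetected in WT CON, 698.5 and 757.2 in iNOS-/- M1) made up most of the sum, whereas Mmp8 read 181.6 and 186.5 in WT CON and 50.5 to 88.8 on the other arrays, and Csf3r 104 and 76.8 in WT CON and 55.6 to 78.6 on the others. Ltf (15.9 and 15.2 in WT CON, 94.6 and 92.6 in iNOS-/- M1) was, like S100a8 and S100a9, lowest in WT CON and highest in iNOS-/- M1. So were Ngp (93.85 and 71.48 in iNOS-/- M1) and Camp (59.6 and 41.44 in iNOS-/- M1), both undetected in WT CON. Mmp9 and Elane did not follow this order. The part of the granulocyte markers in the Trem1 and Trem3 levels was not tested.

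Tyrobp, the DAP12 adaptor on which the activating members depend, read 3159 and 3590 in WT CON, 1802 and 1382 in WT M1, 1802 and 1709 in iNOS-/- CON, and 1220 and 1268 in iNOS-/- M1. WT CON was the highest group and iNOS-/- M1 the lowest, while WT M1 and iNOS-/- CON overlapped. It was 1.92-fold lower in iNOS-/- CON than in WT CON (adjusted p = 0.00847) and 2.13-fold lower in WT M1 than in WT CON (adjusted p = 0.00502). The fall on activation of iNOS-/- cells was 1.41-fold (log2 -0.50, SE 0.15, adjusted p = 0.0426). This last call was lost with the array number as a block (adjusted p = 0.0699), without a detection filter (adjusted p = 0.078) and with any 1 of 6 arrays left out. Tyrobp and Trem2 were called lower in the same 3 comparisons, while Trem3 and the Trem1 probe at base 2646, whose products use the same adaptor, were called higher in iNOS-/- CON and in WT M1 than in WT CON.

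Sirpa, the inhibitory receptor for CD47, gave different patterns with its 2 probes. The brighter probe, at base 3474 of the transcript, read 9096 and 8531 in WT CON, 6045 and 6034 in WT M1, 5032 and 4980 in iNOS-/- CON, and 4456 and 4765 in iNOS-/- M1. It was 1.76-fold lower in iNOS-/- CON than in WT CON (adjusted p = 0.002) and 1.46-fold lower in WT M1 than in WT CON (adjusted p = 0.00687), and did not pass for activation of iNOS-/- cells (log2 -0.12, SE 0.08, adjusted p = 0.287). With neqc or quantile normalization the last difference was -0.78 and passed (adjusted p = 5.4e-05 and 0.00159). The probe at base 982 read 321.5 and 321.4 in WT CON, 356.9 and 302.8 in WT M1, 151.7 and 132.3 in iNOS-/- CON, and 351.1 and 448.7 in iNOS-/- M1. It was 2.27-fold lower in iNOS-/- CON than in WT CON (adjusted p = 0.00499), like the brighter probe, but activation of iNOS-/- cells raised it 2.80-fold (adjusted p = 0.00111). The probes thus agreed in direction in unstimulated cells. On activation of WT cells only the brighter probe was called, and the probe at base 982 was not (log2 0.03, adjusted p = 0.896). On activation of iNOS-/- cells only the probe at base 982 was called in the main scaling. Whether the probe at base 982 also reads related Sirp transcripts was not tested.

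Pilra, an inhibitory receptor that binds sialylated proteins, moved opposite to the CD300 genes. It read 99.2 and 113 in WT CON, 263 and 170.5 in WT M1, 196.5 and 223 in iNOS-/- CON, and 496 and 422.5 in iNOS-/- M1. WT M1 and iNOS-/- CON overlapped, and iNOS-/- M1 was above every other array. Pilra was 1.97-fold higher in iNOS-/- CON than in WT CON (adjusted p = 0.028), 2.00-fold higher in WT M1 than in WT CON (adjusted p = 0.0249) and 2.19-fold higher in iNOS-/- M1 than in iNOS-/- CON (adjusted p = 0.011). Each of these calls was lost when some single array was left out, with adjusted p-values up to 0.122.

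Taking the probes of the set as a whole in unstimulated cells, 7 of 12 were lower in iNOS-/- CON than in WT CON, 3 were higher and 2 did not pass, where 32.2% of all 13868 tested probes were called (16.7% higher and 15.4% lower). Those lower were both probes of Cd300a and of Sirpa, Cd300lb, Trem2 and Tyrobp, and those higher were Trem3, Pilra and the Trem1 probe at base 2646. The median difference was -0.80 against 0.00 over all tested probes. All 12 probes passed the detection filter, Trem3 and one Trem1 probe only through the groups in which they were high. Without iNOS-/- CON replicate 2 the number of lower calls was 4.

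After activation, Cd300lb was left out of the count because it had chosen the set. In WT cells, 5 of the other 11 probes fell (both of Cd300a, Trem2, Tyrobp and the Sirpa probe at base 3474), 3 rose (Trem3, Pilra and the Trem1 probe at base 2646) and 3 did not pass, with 35.1% of all tested probes called (20.8% higher and 14.3% lower). Of those calls over all probes 59.3% were increases, and 44.4% with neqc. In iNOS-/- cells, 5 of 11 fell (both of Cd300a, Cd300lf, Trem2 and Tyrobp), 2 rose (Pilra and the Sirpa probe at base 982) and 4 did not pass, with 50.3% of all tested probes called (25.2% higher and 25.1% lower). The median differences were -0.07 in WT cells and -0.12 in iNOS-/- cells, against 0.09 and 0.00 over all tested probes. These comparisons share the CON arrays with the comparison of unstimulated cells, so their values are set side by side and not compared further. Without iNOS-/- CON replicate 1 or iNOS-/- M1 replicate 1 only 1 probe rose in iNOS-/- cells, and with neqc 5 did.

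**Figure D2:**
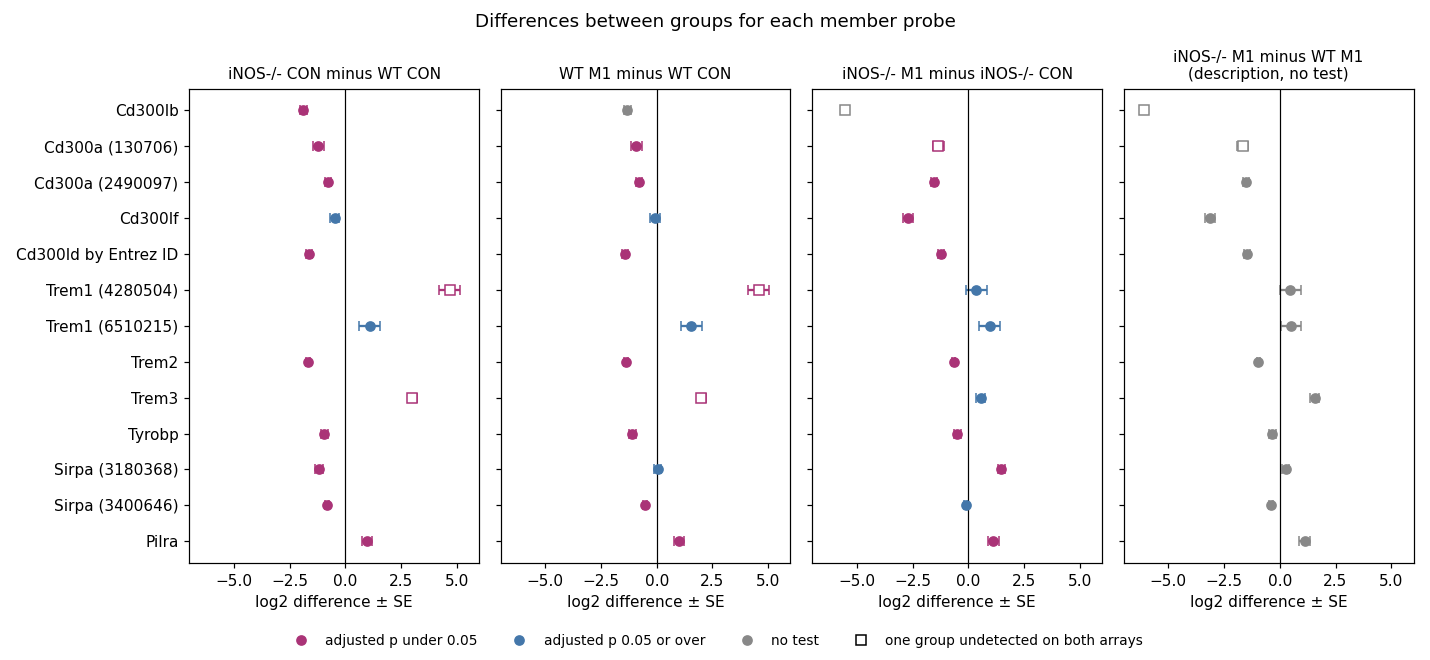
Log2 difference with its standard error (x axis) of each member probe (y axis) in 4 comparisons of groups of 2 arrays; open squares mark probes undetected on both arrays of one group, whose size is only a bound. The CD300 probes lie left of 0 in every panel, and Trem3 and Pilra lie right of 0.

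Between the M1 groups, which the choice of the set used, 10 of 12 probes did not overlap (74.8% of all tested probes did not, and 48.2% were called), and nothing is read from that count. Cd300lb and Cd300lf had the largest decreases of the set in iNOS-/- M1 in the main scaling and with neqc, quantile normalization, a line with intercept and a floor of 16, and Trem3 and Pilra were 2.95-fold and 2.16-fold higher. Responses to activation differed in size between the genotypes by -2.65 (SE 0.31) for Cd300lf and 1.45 (SE 0.23) for the Sirpa probe at base 982. For Trem1 (probe 4280504) and Trem3, which were undetected in WT CON, the differences were -4.22 (SE 0.65) and -1.45 (SE 0.28). With a floor of 16 these 2 were -0.93 and 0.49, so their size depends on how low values are treated. All are log2 differences of the iNOS-/- response from the WT response and descriptions, where 42% of all tested probes were called. No member went one way in WT cells and the other way in iNOS-/- cells without overlap, while 23.6% of all tested probes did.

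Across all 4 groups, 6 of 12 probes were above every other array in WT CON and below every other array in iNOS-/- M1, a pattern of 9.45% of all tested probes, and 3 showed the reverse, a pattern of 9.14%. The first were both probes of Cd300a, Cd300lb, Trem2, Tyrobp and the Sirpa probe at base 3474, and the second were Pilra, Trem3 and the Trem1 probe at base 2646. The 3 others were Cd300lf, the Sirpa probe at base 982 and the Trem1 probe at base 14. The set was chosen with these data known, so the shares are a description.

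The stretch of chromosome 11 from Cd300a to Cd300lf holds 12 genes in RefSeq, of which 8 had a probe and 6 passed the detection filter. Cd300c2 (listed as AF251705), an activating receptor that lies between members, was 7.51 ± 0.40 in WT CON and 5.99 ± 0.03 in iNOS-/- CON (log2 difference -1.52, adjusted p = 0.00406). It was 5.62 ± 0.06 in WT M1 and 5.32 ± 0.07 in iNOS-/- M1, a difference that did not pass (log2 -0.30, adjusted p = 0.265). Cd300ld3 (listed as Clm3) was lower in iNOS-/- CON by 2.03 (adjusted p = 0.0418), and was undetected in iNOS-/- M1. Cd300e and Rab37, which lie in the same stretch, were undetected on all 8 arrays. The next gene beyond Cd300lf, Slc9a3r1, was also lower in iNOS-/- CON (log2 difference -0.58, adjusted p = 0.00596) and in WT M1 (-0.33, adjusted p = 0.0327) than in WT CON. Unlike the CD300 genes, it rose on activation of iNOS-/- cells, from 9.38 ± 0.03 to 10.38 ± 0.00 (log2 difference 0.998, adjusted p = 0.000484). It was also higher in iNOS-/- M1 than in WT M1 (0.75, adjusted p = 0.00158). On chromosome 17, Treml4, between Trem3 and Trem2, was undetected in WT CON like Trem3 and the Trem1 probe at base 2646, and was at least 2.12-fold higher in iNOS-/- CON (adjusted p = 0.0075) and at least 2.31-fold higher in WT M1 (adjusted p = 0.00572). Treml2 did not pass in any of the 4 comparisons (adjusted p from 0.221 to 0.574).

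**Figure D3:**
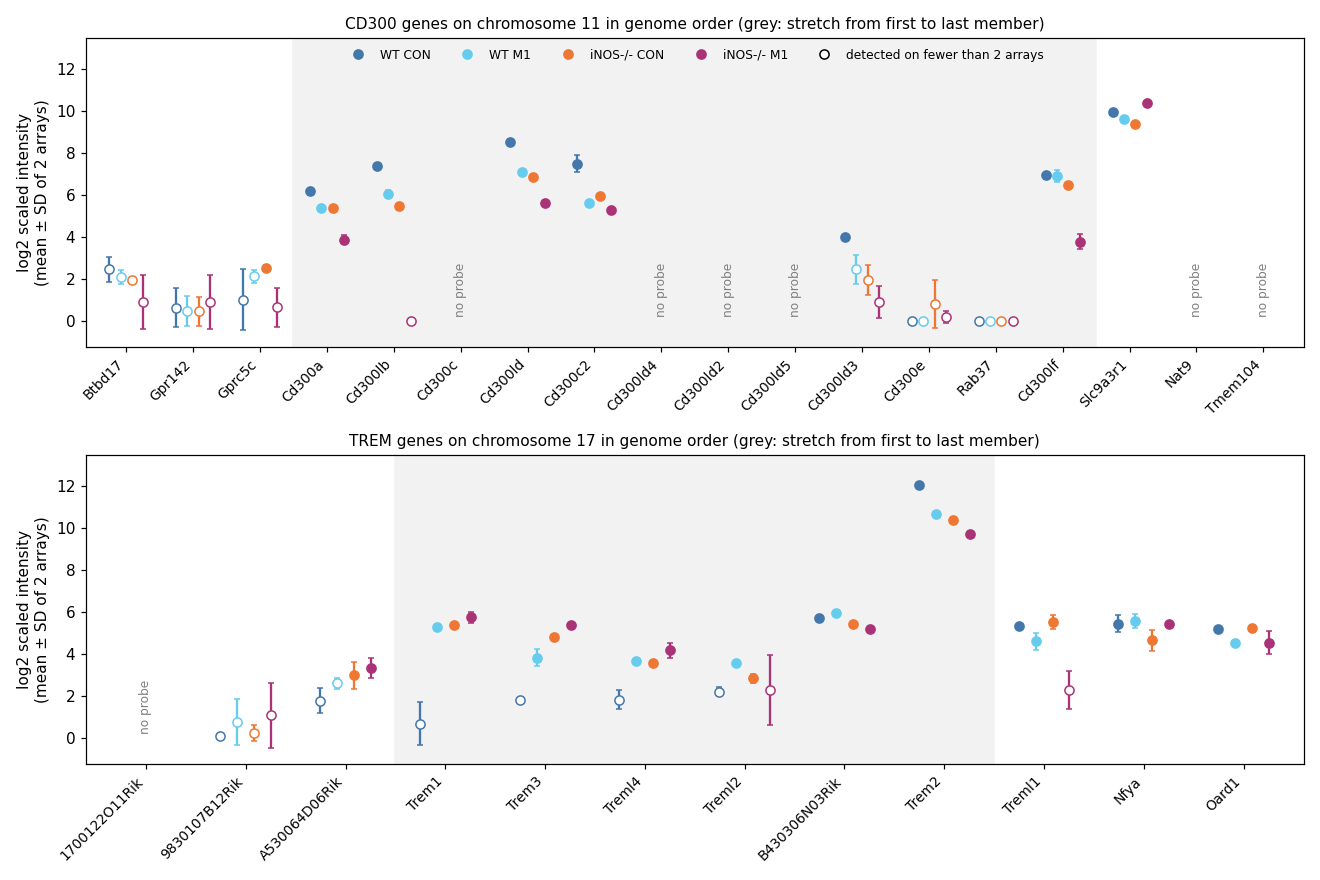
Mean log2 scaled intensity with SD of 2 arrays (y axis) for the genes of the CD300 and TREM stretches and their neighbours in genome order (x axis), by group, with open circles where fewer than 2 arrays detected the probe. Detected CD300 genes are highest in WT CON, and Trem3, Treml4 and the plotted Trem1 probe (4280504, the brighter on average) are undetected there while Trem2 is highest there.

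Other receptors of these kinds, from a list of 36 genes on the array, did not follow 1 direction. Of 26 tested, 10 were lower and 6 higher in iNOS-/- CON than in WT CON (median -0.30, against 0.00 over all probes). That is 61.5% called, against 32.2% of all tested probes. Between the M1 groups 10 were lower and 3 higher in iNOS-/- cells (median -0.76, against -0.03), where 25.3% of all tested probes were lower and 22.9% higher. Activation of WT cells raised 6 and lowered 6 (median -0.24, against 0.09), and that of iNOS-/- cells raised 6 and lowered 13 (median -0.60, against 0.00). The shares called were 46.2% and 73.1%, against 35.1% and 50.3% of all tested probes. Cd244, a receptor of the SLAM family, was undetected in WT CON and was at least 8.07-fold higher in iNOS-/- CON (adjusted p = 0.00195) and at least 3.76-fold higher in WT M1 (adjusted p = 0.00412). Pecam1, an adhesion receptor with inhibitory motifs, was undetected in WT CON and at least 1.97-fold higher in iNOS-/- CON (adjusted p = 0.000115) and at least 2.19-fold higher in WT M1 (adjusted p = 7.5e-05). Both WT CON values of Pecam1 were at the floor, so that group entered these tests without any spread. Siglech, a DAP12-coupled lectin, was at least 2.86-fold higher in WT M1 than in WT CON (adjusted p = 0.0126).

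Several inhibitory or related receptors were undetected in iNOS-/- M1, as Cd300lb was. Cd200r1, the inhibitory receptor for CD200, read 6.38 and 5.80 on the log2 scale in WT M1 and was at least 9.13-fold lower in iNOS-/- M1 (adjusted p = 0.00172) and at least 9.08-fold lower than in iNOS-/- CON (adjusted p = 0.00145). Cd22, an inhibitory sialic acid receptor, was 5.05-fold lower in iNOS-/- CON than in WT CON (adjusted p = 0.0343) and at least 3.15-fold lower in iNOS-/- M1 than in WT M1 (adjusted p = 0.00673). Cd300lg, a family gene outside the chromosome 11 stretch described above, was at least 2.30-fold lower in iNOS-/- M1 than in WT M1 (adjusted p = 0.0126) and at least 2.42-fold lower than in iNOS-/- CON (adjusted p = 0.0106). Treml1, beside Trem2, was 9.41-fold lower in iNOS-/- M1 than in iNOS-/- CON (adjusted p = 0.00305), with 1 of the 2 iNOS-/- M1 arrays detected. Pilrb1, the activating counterpart of Pilra, rose in all 4 comparisons like Pilra, by 0.96, 0.86, 1.18 and 1.07 for unstimulated cells, M1 cells, WT activation and iNOS-/- activation (adjusted p from 0.000404 to 0.00129), and was named after its values were seen.

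Ligands and signalling partners of the receptors, 43 tested of 49 on the array, also moved both ways. In iNOS-/- CON 11 were higher and 13 lower than in WT CON (median -0.09), and in iNOS-/- M1 17 were higher and 12 lower than in WT M1 (median 0.32). The shares called were 55.8% and 67.4%, against 32.2% and 48.2% of all tested probes. Activation raised 13 and lowered 8 in WT cells (median 0.21), and raised 19 and lowered 11 in iNOS-/- cells (median 0.49), against medians of all probes between -0.03 and 0.09. On activation 48.8% and 69.8% of these genes were called, against 35.1% and 50.3% of all tested probes. Inpp5d, encoding the phosphatase SHIP-1 that inhibitory receptors recruit, read on the log2 scale 7.41 and 7.18 in WT M1, 7.68 and 7.28 in iNOS-/- CON, and 3.66 and 4.89 in iNOS-/- M1. It was 8.12-fold lower in iNOS-/- M1 than in WT M1 (adjusted p = 0.00293) and 9.25-fold lower than in iNOS-/- CON (adjusted p = 0.00204), and the unstimulated groups did not differ past the threshold (log2 -0.03, adjusted p = 0.963). Ptpn6, encoding the phosphatase SHP-1, was higher by 0.64 in iNOS-/- CON than in WT CON (adjusted p = 0.00507), by 0.91 on activation of WT cells and by 0.52 on activation of iNOS-/- cells.

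Cd47, the ligand of SIRPα, rose by 0.99 on activation of iNOS-/- cells (adjusted p = 0.00108) and was higher by 0.79 in iNOS-/- M1 than in WT M1 (adjusted p = 0.00303), and its change in WT cells was 0.26 (adjusted p = 0.125). Syk, the kinase that DAP12 recruits, rose by 1.24 on activation of iNOS-/- cells (adjusted p = 0.0327) and did not pass in the other 3 comparisons. Fcer1g, the adaptor used by Cd300ld, was lower by 0.41 in iNOS-/- CON than in WT CON (adjusted p = 0.0316) and rose by 0.49 on activation of iNOS-/- cells (adjusted p = 0.0116). Among intracellular adaptors and phosphatases, Sla and Dok2 were 6.34-fold and 5.97-fold lower in iNOS-/- M1 than in WT M1 (adjusted p = 0.000151 and 0.00011), and Ptprj was 7.68-fold higher in iNOS-/- M1 than in iNOS-/- CON (adjusted p = 0.000245).

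Of the phosphoinositide 3-kinase genes, Pik3cg was 3.17-fold higher in iNOS-/- CON than in WT CON (adjusted p = 0.000177), and activation of WT cells raised Pik3ap1 3.15-fold (adjusted p = 0.00105) and Pik3cd 2.28-fold (adjusted p = 0.00146). Lat, an adaptor, was 3.83-fold lower in iNOS-/- CON than in WT CON (adjusted p = 0.041) and at least 4.94-fold lower in WT M1 (adjusted p = 0.0173). Cd200, the ligand of the CD200 receptors, read 0.00 and 2.40 in iNOS-/- CON and 6.52 and 6.71 in iNOS-/- M1 on the log2 scale, and was 42.7-fold higher after activation (adjusted p = 0.00287), a size that rests on the 1 iNOS-/- CON array at the floor. It was 6.70-fold lower in iNOS-/- CON than in WT CON (adjusted p = 0.0458). The shares called in both lists were above those of all probes in the same comparisons, which were 32.2% to 50.3%. The lists were chosen with earlier results known and were not tested as sets, so nothing particular to them is read from the counts.

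**Figure D4:**
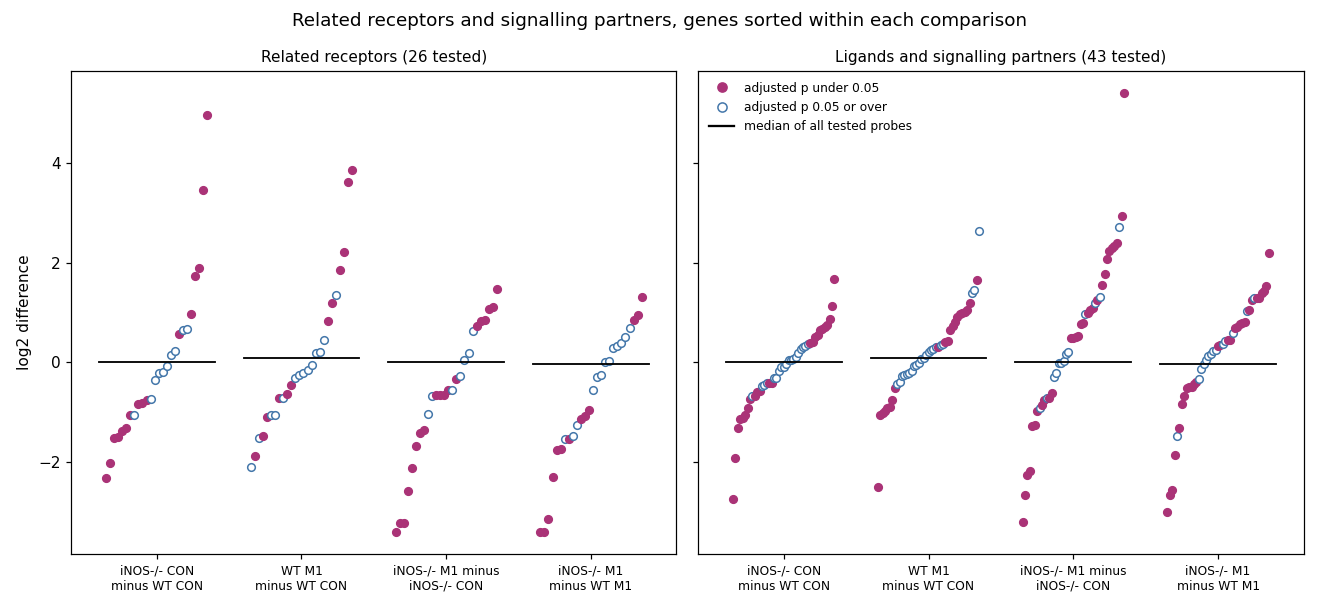
Log2 difference (y axis) of the 26 related receptors and 43 ligands and signalling partners tested, in 4 comparisons (x axis), sorted within each comparison, with filled circles for adjusted p under 0.05 and a line at the median of all tested probes. Both lists spread to both sides of the line in each comparison.

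The probes whose pattern over the 8 arrays was most like that of Cd300lb, by Pearson correlation among 12284 probes detected on at least 4 arrays, were LOC676420 (r = 0.9989), Snx24 (0.9986), Dgkz (0.9985), Rab11fip5 (0.9985) and E330036I19Rik (0.9983). All 5 were detected on every array, and each was lowest in iNOS-/- M1 and highest in WT CON. Within the set, r with Cd300lb was 0.978 for Cd300lf, 0.977 and 0.946 for the Cd300a probes, 0.828 for Trem2, 0.753 for Tyrobp and -0.917 for Pilra. The 8 points of each correlation are the same arrays in 4 groups, so r follows the group differences described above.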

How the data were processed

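RNA of bone marrow-derived macrophages was measured on 8 bead arrays, 2 in each of 4 groups, with groups and replicate numbers taken from the labels. For every probe on every array the authors deposited a bead-averaged intensity, left without normalization between arrays, and a detection p-value. The file header names neither normalization nor background subtraction, yet the intensities of undetected probes lie around 0 and 25.2% to 27.2% of the values on each array are below 0, so no further background was subtracted. The submitters' processing notes name GenomeStudio and limma 3.14.4. The labels name the MouseRef-8 array and the methods another Illumina mouse array. The column names left 0 value columns without a sample.

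Arrays were brought to a common scale with the mean array as reference. Probes of like rank (ranks between 0.5 and 0.9 of the number of probes, differing by less than 0.05) were regressed by a robust method without intercept (MASS 7.3.60.0.1), which gave factors of 0.813 to 1.30. After scaling, 1 replaced every lower value before log2 transformation. The filter asked for a detection p-value under 0.05 on 2 or more arrays, and 13868 of 25697 probes met it. limma 3.58.1 (R 4.3.3) fitted the 4 groups jointly, with Benjamini-Hochberg adjustment over all 13868 probes and calls at an adjusted p under 0.05. Folds given as "at least" concern probes undetected on both arrays of a group. There the dim level on an array was replaced by the faintest detected signal of that array where this was higher. The few arrays limit the precision.

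A gene of the related receptor and partner lists with several probes was given by the brightest one, and members by every probe. Genes named beside the members were the 3 largest called changes of each list in each comparison, provided that the higher group was detected on both arrays and that the groups did not overlap, the 5 probes most like Cd300lb, and Nos2, Cd47, Ptpn6, Inpp5d, Syk and Fcer1g. Neighbours in the genome were described along RefSeq's gene order, and 23788 probes (92.6%) matched RefSeq by Entrez identifier. The members and all lists were chosen with earlier results of these data known. Alternatives were neqc, quantile normalization, a line with intercept, a floor of 16 or of non-positive values only, other detection filters, the 4 arrays of a comparison alone, the replicate number as a block, an intensity trend and each array left out in turn. The procedure was tested on simulated data.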

Additional observations from a re-analysis of the deposited data

Results flagged for a closer look

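For relatives and signalling partners, the difference between the iNOS-/- and WT responses to activation was tested (limma, interaction term, Benjamini-Hochberg). Of all tested probes 42% were called in this comparison. The genes were the largest called changes of each list on these same arrays, with Cd47, Ptpn6, Inpp5d, Syk and Fcer1g. This choice favours large differences, so nothing particular to these genes is read from them. Cd22, Lat, Pik3ap1, Ptpn6 and Syk did not pass (adjusted p from 0.0541 to 0.353), and those listed next passed an adjusted p of 0.05. As log2 differences of the iNOS-/- response from the WT response, values below 0 were found for Cd244 (-6.46), Siglech (-3.64), Dok2 (-3.32), Cd300lg (-3.08), Sla (-3.03), Inpp5d (-2.99), Treml1 (-2.52), Cd200r1 (-2.35), Pik3cd (-2.18), Pecam1 (-2.15) and Pik3cg (-0.85). Values above 0 were found for Cd200 (4.03), Ptprj (1.97), Fcer1g (0.76) and Cd47 (0.73). Dok2 rose by 1.05 in WT cells and fell by 2.27 in iNOS-/- cells, and Pik3cd rose by 1.19 and fell by 0.99. With neqc the difference for Pecam1 turned to 0.29, and those for Cd244 (-2.18), Siglech (-0.98), Cd300lg (-0.57), Treml1 (-0.91), Cd200r1 (-0.89), Cd200 (1.82), Fcer1g (0.27) and Cd47 (0.29) were smaller, the last pair also with quantile normalization (0.28 and 0.30). The cause of these differences was not tested. Groups of 2 arrays were too small to look for single arrays that stand apart.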

How the results depend on the processing

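Of 34 tested member differences, 15 kept their direction and their side of the threshold under every alternative run. The size of changes that end at an undetected level depends on how low values are treated. The set was chosen with the decrease of Cd300lb known, and Cd300lb was undetected on both iNOS-/- M1 arrays. Nothing is therefore read from the direction of its M1 difference staying the same. The difference of Cd300lb between the M1 groups was -6.08, and -2.11 with neqc, -3.91 with a line with intercept and -2.08 with a floor of 16, and between -6.22 and -5.94 with 1 array left out. The difference of its responses was -4.19, and -0.46 with neqc, -3.99 with quantile normalization, -2.08 with the intercept and -0.19 with a floor of 16, and between -4.33 and -4.05 with 1 array left out. The cause was not tested.

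Signs turned as follows. For Pilra the difference of responses went from 0.13 to -0.18 without WT M1 replicate 2. The difference of Trem1 (probe at base 14) between the M1 groups went from 0.51 to -0.13 without WT M1 replicate 1. For Cd300a (probe at base 4334) the difference of responses turned to 0.25 with neqc, 0.78 with the intercept and 0.82 with a floor of 16. For Trem1 (probe at base 14) it turned to 0.0446 with neqc, 0.17 with the intercept and 0.35 with a floor of 16, and ranged from -1.23 to 0.0444 with 1 array left out. For Trem3 it turned to 1.0e-04 with neqc and 0.49 with a floor of 16, and for Sirpa (probe at base 3474) to -0.14 with neqc and -0.13 with quantile normalization. The WT response of Cd300lf ranged from -0.28 to 0.14 with 1 array left out, above 0 without WT M1 replicate 2. That of Sirpa (probe at base 982) was -0.0181 with neqc and -0.0198 with quantile normalization, and ranged from -0.0865 to 0.15 with 1 array left out, below 0 without WT M1 replicate 1.

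Of member probes called, those higher in iNOS-/- CON than in WT CON numbered 3, and 1 among the 8 detected on all 8 arrays. Those raised by activation of iNOS-/- cells numbered 2, and 5 with neqc. With 1 array left out, the calls in unstimulated cells ranged from 2 to 3 higher and from 4 to 7 lower, those in WT activation from 2 to 3 higher and from 4 to 5 lower, and those in iNOS-/- activation from 1 to 4 higher and from 4 to 5 lower. Related receptors called numbered 12 to 17, 8 to 14, 9 to 14 and 11 to 17 with 1 array left out, for unstimulated cells, M1 cells, WT activation and iNOS-/- activation, and 12 in the last of these among probes detected on all 8 arrays. The lowest values came without WT M1 replicate 2 for M1 cells and without iNOS-/- CON replicate 1 for iNOS-/- activation. Partners called numbered 14 to 22, 21 to 28, 15 to 21 and 27 to 31 in the same order.

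The replicate numbers did not pair the arrays, since the correlation of their deviations lay between -0.0375 and 0.0247. With the replicate block, 28.1% in place of 32.2% of all probes were called between the unstimulated groups, and among the tested member differences Tyrobp lost its call on activation of iNOS-/- cells (adjusted p = 0.0699). Without a detection filter 15.7% of 25697 probes were called there. The line with intercept moved the median of all probes to 0.24 between the M1 groups and the share of increases among all calls from 47.5% to 58.4%. For WT activation that share was 59.3%, and 44.4%, 47.5% and 49% with neqc, quantile normalization and the intercept. Low signal over background limits Cd300lb, Trem3 and 1 of the 2 probes each of Cd300a and Trem1 to bounds in at least 1 group.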
